A study of Rattus norvegicus with 20 samples.

Results

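Rat globular bushy cells were compared at P8 with the ages on either side, P3 and P21, to find genes whose level at P8 lay above both or below both. The comparison used 15 of the 20 arrays of the series: 6 at P3, P8 biological replicates 1 to 4, and 5 at P21. P8 replicates 5 to 9 were left out because their spike-in control probe sets were raised, and their values are given only beside those of the other arrays. Of 12023 genes tested, 111 (0.923%) met the rule, 70 with P8 above both ages and 41 with P8 below both. All animals were Sprague Dawley rats that had received the retrograde tracer cholera toxin B in the medial nucleus of the trapezoid body 24 hours before death. In each animal 200 labelled cells were cut from 12 µm sections of the opposite ventral cochlear nucleus by laser, so each array holds the amplified RNA of 1 animal's pooled cells together with whatever neighbouring tissue the laser took.

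Globular bushy cells are excitatory neurons of the auditory brainstem. Each sends a thick axon across the midline to a principal cell of the medial nucleus of the trapezoid body and ends there in a giant terminal, the calyx of Held. The labels place P3 just after the calyx forms, P8 at a juvenile stage near the onset of hearing, and P21 at maturity. In the days between, the terminal changes from a closed cup into a fenestrated one, the axon is myelinated, and the cell acquires the fast ion channels of mature auditory neurons. A gene that is highest or lowest at P8 departs from a steady course between the outer ages.

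Levels are log2(deposited intensity + 1) and differences are on that scale, so a difference of 1 is a doubling of intensity + 1. The contrast is the P8 mean minus the mean of the P3 and P21 means, given with its standard error and limma's p-value after Benjamini-Hochberg adjustment over all genes tested. A gene was called when this adjusted p was under 0.05 and all 4 P8 arrays lay beyond all 11 arrays of the other ages. The size of a peak or trough is the distance from the P8 mean to the nearer of the other age means. Genes named outside the stated rule were chosen after their values were seen.

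The arrays carried markers of the labelled cells, and the P8 arrays differed more among themselves than those of the other ages. Of 22 tested genes of a bushy cell list, 14 averaged over log2 8 at P8, and Slc17a6, the vesicular glutamate transporter 2, stood at 11.30 to 11.72 in the P8 arrays. The mean of that list was 8.68 in P8 replicate 1, 7.91 in replicate 2, 7.95 in replicate 3 and 8.97 in replicate 4, against 7.12 to 7.44 at P3 and 8.99 to 9.46 at P21. Both replicates 2 and 3 were below both replicates 1 and 4 in 14 of the 22 genes, among them Pvalb, for the calcium buffer parvalbumin, at 8.14, 4.67, 3.97 and 8.98 in replicates 1 to 4. They were above in 1, Slc17a6, and the other genes, such as Calb2 at 8.84, 9.48, 10.25 and 10.52, did not separate the pairs. The mean correlation between arrays of the same age was 0.954 at P3, 0.899 at P8 and 0.937 at P21. Spike-in controls averaged 8.85 in P8 replicates 1 to 4 and 13.22 in replicates 5 to 9. Fewer cells of a type and less RNA per cell cannot be told apart in such pooled samples.

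The 70 genes with P8 above both ages were 0.582% of those tested, and the 41 with P8 below both were 0.341%. Without a p-value, 85 genes (0.707%) had all P8 arrays above and 48 (0.399%) all below the others. The contrast alone called 361 genes higher (3.00%) and 275 lower (2.29%). Pairs of ages were compared at a limma adjusted p under 0.05. By that threshold P8 exceeded P3 in 9.15% of genes and was under it in 7.95%. P8 exceeded P21 in 9.92% and was under it in 9.61%, and P21 exceeded P3 in 22.4% and was under it in 20.2%. The peaks had sizes of 0.32 to 2.87 with a median of 0.80, and 27 of the 70 were at least 1. The troughs had sizes of 0.39 to 2.75 with a median of 0.82, and 13 of the 41 were at least 1. P21 had returned to within 0.5 of the P3 mean in 55 of the 70 peaks (78.6%) and 34 of the 41 troughs (82.9%), against 51.2% of all tested genes, a measure that the rule itself favours because it asks P8 to lie outside both. At the edge of the rule, Psd4 was called at an adjusted p of 0.049, and the call was kept in 2 of 15 fits that each left out 1 array. Zzz3 did not overlap either age but missed the threshold at an adjusted p of 0.0507.

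**Figure D1:**
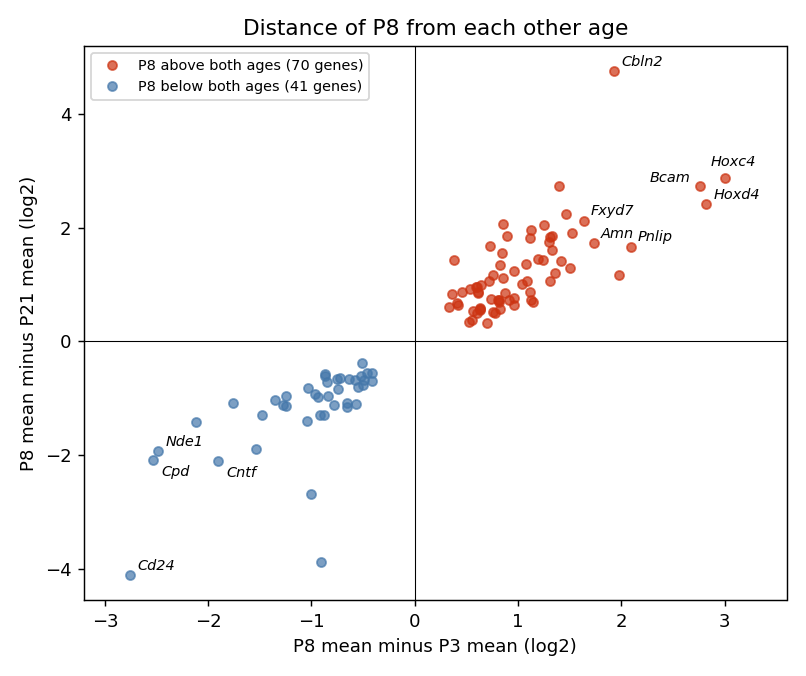
Each point is 1 called gene, with the P8 mean minus the P3 mean on the horizontal axis and the P8 mean minus the P21 mean on the vertical axis, both in log2 units. The 70 peaks lie at upper right and the 41 troughs at lower left, as the rule requires, both axes share the P8 arrays, and the labelled genes are at least 1.6 from the nearer age.

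Hoxc4 and Hoxd4, homeobox genes of the same paralogue group, were among the 3 largest peaks. Hox genes encode transcription factors that give cells their position along the head-to-tail axis, and in the hindbrain they also mark where auditory neurons arose. Hoxc4 ranged from 2.43 to 3.62 at P3 with a median of 3.31, stood at 4.58, 8.46, 7.56 and 4.32 in P8 replicates 1 to 4, and was 2.89, 2.93, 3.56, 3.14 and 4.31 in P21 replicates 1 to 5. The high values were those of P8 replicates 2 and 3, whereas replicate 4 cleared the highest P21 array by less than 0.01. The contrast was 2.94 ± 0.60 (adjusted p = 0.012). Hoxc4 was over log2 4 in the 4 P8 arrays and 1 P21 array only, and it was the 1 peak of 70 that passed the filter on low values only with the P8 arrays counted, so it had to differ and the size of its contrast is against levels under the filter. Hoxd4 ranged from 3.17 to 4.25 at P3 with a median of 3.99, was 4.87, 8.33, 8.93 and 4.87 at P8, and 4.62, 4.85, 4.80, 4.31 and 3.12 at P21. The same pair of P8 arrays was high, and the other pair stood just above the highest P21 arrays. Its contrast was 2.62 ± 0.63 (adjusted p = 0.0265). Without P8 replicate 3 the contrast of Hoxc4 was 2.49 (adjusted p = 0.0553). That of Hoxd4 was 2.09 without replicate 2 and 1.89 without replicate 3 (adjusted p = 0.0996 and 0.102).

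Both genes have a nuclear receptor half-site in the 300 bases around their start, and the promoters are printed to show how little else they share. They come from RefSeq on the build GRCr8, from 250 bases before the start to 50 after it, on the plus strand, at chr7:136048809-136049108 for Hoxc4 and chr3:80021636-80021935 for Hoxd4. Capitals mark the letters TGACCT, the reverse complement of AGGTCA, which begin 43 bases before the start of Hoxc4 and 98 bases before that of Hoxd4.
Hoxc4: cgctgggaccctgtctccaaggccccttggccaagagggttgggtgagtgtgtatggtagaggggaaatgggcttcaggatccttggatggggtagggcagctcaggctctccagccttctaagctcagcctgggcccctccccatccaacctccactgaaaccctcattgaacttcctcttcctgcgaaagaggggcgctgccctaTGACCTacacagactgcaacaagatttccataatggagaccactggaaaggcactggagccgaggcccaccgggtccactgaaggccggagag
Hoxd4: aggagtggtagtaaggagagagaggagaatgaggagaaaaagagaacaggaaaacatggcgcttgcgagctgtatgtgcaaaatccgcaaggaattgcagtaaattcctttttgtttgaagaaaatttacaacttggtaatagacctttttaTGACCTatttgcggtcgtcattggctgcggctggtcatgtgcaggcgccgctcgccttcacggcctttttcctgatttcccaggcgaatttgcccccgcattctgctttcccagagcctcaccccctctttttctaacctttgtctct
The longest run shared by both windows was the 9 bases tatgaccta, which holds the half-site. AGGTCA, searched on both strands, was in 7 of the 52 peak promoters found in the table (13.5%), in 4 of 29 trough promoters (13.8%), in 11.9% of the promoters of tested genes and in 15.7% of all 27457. The E-box CACGTG, its own reverse complement, was in 12 of the 52 peak promoters (23.1%), in 1 of 29 trough promoters (3.45%) and in 9.33% of those of tested genes. The cAMP response element TGACGTCA was in 1 of 52 peak promoters, 0 of 29 trough promoters and 3.13% of those of tested genes. Matches describe letters in a window and were not tested as sites.

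The other Hox genes were mixed. Of 24 measured, 12 passed the filter on low values, 6 of these had their highest mean at P8, and 2 were called. Of all tested genes 24.1% were highest at P8 and 0.582% were peaks. Hoxc4, Hoxd3 and Hoxa3l1, among the 6, passed the filter only with the P8 arrays counted. The filter itself therefore favoured both counts. The family was chosen after its values were seen. Hoxd3 stood at 3.61, 7.79, 6.60 and 6.22 in the P8 arrays against 0.77 to 5.74 at P3 and 1.07 to 3.00 at P21. P8 replicate 1 lay inside the P3 range, so the gene was not called. It was over log2 4 in P8 replicates 2 to 4 and P3 replicates 2 and 6 only. It therefore passed the filter only with the P8 arrays counted, and its contrast is not given. Hoxa3l1 stood at 3.73, 5.84, 6.26 and 5.18, against at most 2.43 at P3 and 4.06 at P21, and P8 replicate 1 again overlapped. It passed the filter through 3 P8 arrays and 1 P21 array, and in 11 of 15 fits that left out 1 array, so its contrast is not given. Hoxb2, a gene of the more anterior hindbrain, was 7.01, 8.83, 8.71 and 7.34 at P8 and 7.43 to 8.71 at P3, a contrast of 0.29 ± 0.31 (adjusted p = 0.61). The Hox genes of groups 7 to 11 had contrasts of -0.25 to 0.27, none of them past the threshold (limma adjusted p of 0.32 or more). In P8 replicates 2 and 3 Hoxc4, Hoxd4 and Hoxd3 were all above 6.5, and the bushy cell mean was lower there, as given above. Whether neighbouring cells had a part in these values was not tested.

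**Figure D2:**
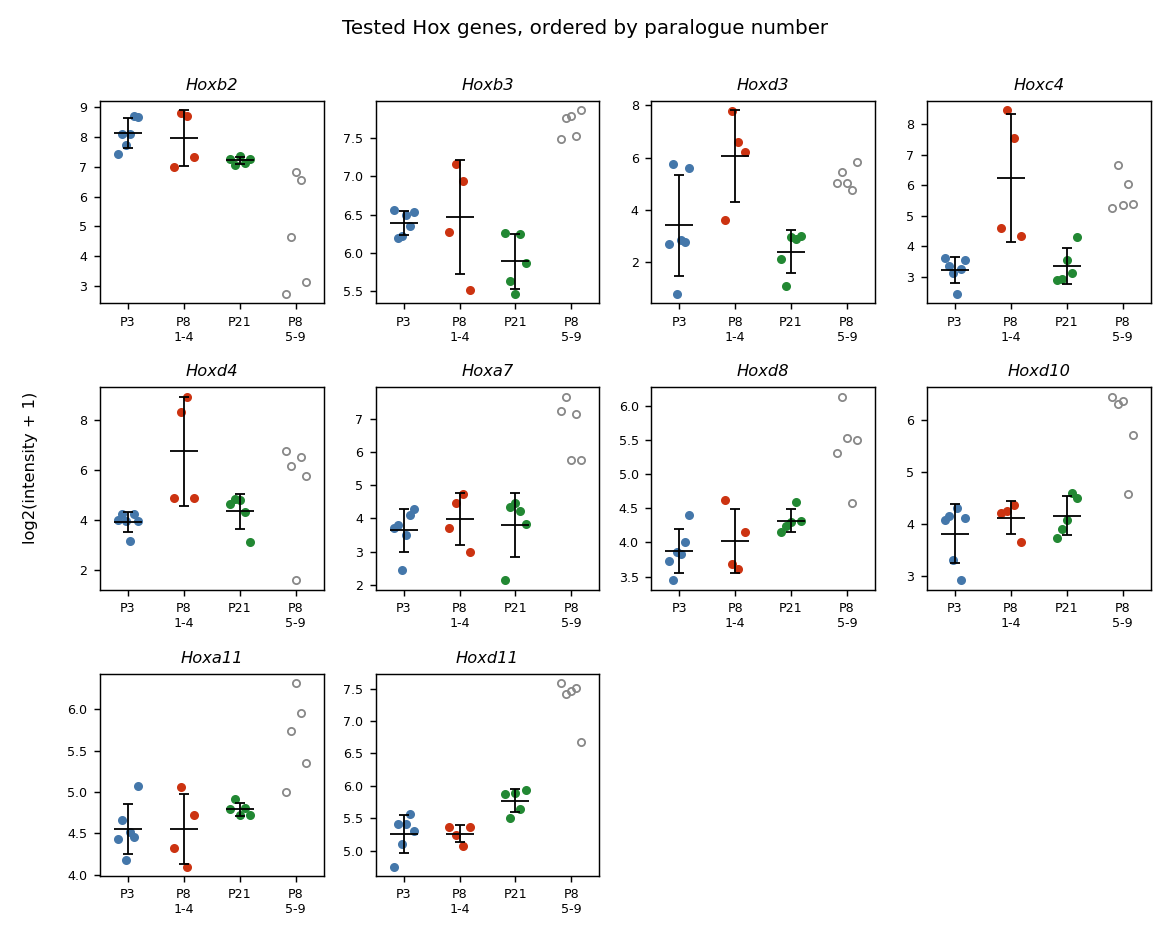
Levels of 10 tested Hox genes, ordered by paralogue number, as log2(intensity + 1) for each array at P3, P8 replicates 1 to 4, P21 and P8 replicates 5 to 9 (open circles); bars are the mean and SD. Hoxa3l1 and Hoxa11-as are not drawn. In P8 replicates 1 to 4 the highest values of Hoxd3, Hoxc4 and Hoxd4 lie in replicates 2 and 3, and in P8 replicates 5 to 9 genes of groups 7 to 11 are raised as well, such as Hoxa7 at 5.76 to 7.67.

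The synapse adhesion list held 3 peaks, Cbln2, LRRTM1 and Nrxn2. Cbln2 encodes a secreted cerebellin that links presynaptic neurexins to postsynaptic receptors. It ranged from 6.37 to 6.98 at P3 with a median of 6.73, stood at 7.13, 10.28, 10.16 and 7.00 at P8, and was 4.53, 1.85, 4.79, 4.41 and 3.90 at P21. All P8 arrays were above P3, but replicate 4 by only 0.02, and replicates 2 and 3 carried the peak. The contrast was 3.34 ± 0.60 (adjusted p = 0.00722), while the distance to P3 alone, 1.93 ± 0.67, missed the threshold (adjusted p = 0.0586). LRRTM1, for a leucine-rich repeat protein of excitatory synapses that binds neurexins, had a P3 median of 5.51 and a range of 5.12 to 6.14. It stood at 7.01, 6.78, 7.90 and 6.15 at P8 and 4.93, 5.56, 5.49, 5.67 and 5.12 at P21. P8 replicate 4 was barely above the highest P3 array and the other P8 arrays were clear of both ages, with a contrast of 1.47 ± 0.27 (adjusted p = 0.00722).

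Nrxn2, for neurexin 2 itself, had the smallest peak of the group. The P3 arrays ranged from 7.62 to 8.19 with a median of 7.95, the P8 arrays were 8.46, 8.63, 8.57 and 8.62, and the P21 arrays were 8.06, 8.24, 8.18, 7.63 and 7.95. All 4 P8 arrays sat close together just above the other ages, with a contrast of 0.60 ± 0.14 (adjusted p = 0.022). In P8 replicates 5 to 9 Nrxn2 averaged 5.76, all 5 below both ages, and with all 9 P8 arrays the contrast turned to -0.97. Without P8 replicate 2 or 3 the contrast was 0.58 or 0.59 and the adjusted p 0.0655 or 0.0583. Of 29 tested genes in the synapse adhesion list, 3 were called as peaks and 0 as troughs, against 0.582% and 0.341% of all tested genes. In that list 14 genes had their highest mean at P8 (48.3%, against 24.1% of all tested genes), and the median contrast was 0.14 against -0.004.

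Lrfn2, for another leucine-rich repeat protein of excitatory synapses, was also called, at 5.34, 4.61, 5.47 and 5.53 in the P8 arrays against at most 4.43 at P3 and 3.78 at P21 (contrast 1.47 ± 0.20, adjusted p = 0.00146). Syngr3, for the vesicle membrane protein synaptogyrin 3, was the called gene of 42 tested in the synaptic vesicle list. It ranged from 9.35 to 9.94 at P3 with a median of 9.68, was 10.58, 10.77, 11.10 and 10.47 at P8, and 9.29, 9.16, 9.15, 9.84 and 9.37 at P21. The P8 arrays were clear of both ages by over 0.5, and the contrast was 1.22 ± 0.16 (adjusted p = 0.00146). In P8 replicates 5 to 9 the mean of Syngr3 was 7.55, below both ages, and with all 9 P8 arrays the contrast turned to -0.54.

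Kcnc4 was the called gene among 32 tested potassium channel genes. It encodes Kv3.4, a channel subunit of the family that repolarises fast-firing neurons. Its P3 values were 5.86 to 6.78 with a median of 6.52, its P8 values 7.23, 8.04, 7.89 and 7.09, and its P21 values 6.91, 6.69, 6.21, 6.85 and 6.79. Every P8 array was above every other array, and P8 replicates 5 to 9 averaged 7.96, with all 5 above both ages. The contrast was 0.99 ± 0.20 (adjusted p = 0.012). Without P8 replicate 2 or 3 it was 0.84 or 0.89, at an adjusted p of 0.0526 or 0.0524. A further, dimmer probe set of Kcnc4 had no peak, at means of 4.53, 5.10 and 5.18 for P3, P8 and P21. Kcnc1, the Kv3.1 gene that rises through maturation, lay between the ages at P8 with 8.81 to 9.84 (contrast -0.03 ± 0.19, adjusted p = 0.93).

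Fxyd7 and Numbl peaked at P8 and had their lowest mean at P21. Fxyd7, for a brain regulator of the sodium pump, had a P3 range of 5.97 to 6.94 with a median of 6.79, P8 values of 7.99, 8.75, 8.48 and 7.65, and P21 values of 6.11, 5.75, 4.94, 6.96 and 6.73. All P8 arrays were higher than the others by over 0.6, and the contrast was 1.88 ± 0.32 (adjusted p = 0.00549). Numbl, for the endocytic adaptor Numb-like that acts on Notch signalling, ranged from 8.08 to 8.75 at P3 with a median of 8.18, was 9.20, 10.37, 10.30 and 9.12 at P8, and 7.57, 7.01, 6.66, 6.65 and 7.19 at P21. It fell below its P3 level by P21 after the P8 peak, with a contrast of 2.07 ± 0.25 (adjusted p = 0.00122). The left-out P8 replicates 5 to 9 averaged 6.19 for Fxyd7, between its P3 and P21 means, and 6.03 for Numbl. In Numbl each of these left-out arrays lay below every P3 and P21 array. With all 9 P8 arrays the contrast of Numbl was -0.001.

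Nog encodes noggin, a secreted antagonist of bone morphogenetic proteins. It ranged from 6.56 to 7.12 at P3 with a median of 6.84, stood at 8.33, 8.26, 8.84 and 7.24 at P8, and was 6.43, 5.78, 6.14, 6.96 and 6.29 at P21. P8 replicate 4 was only just above the highest P3 array, and the contrast was 1.59 ± 0.25 (adjusted p = 0.00318). It was the called gene among 47 tested in the list of BMP, TGF-beta, Wnt and Notch genes. Of these 17 had their highest mean at P8 (36.2%, against 24.1% of all tested genes). Bmp4, a ligand that noggin binds, was 6.30, 6.04, 5.27 and 6.50 at P8 against 3.73 to 5.11 at P3 and 3.94 to 5.64 at P21. Its contrast was 1.59 ± 0.31 (adjusted p = 0.0106), and P8 replicate 3 overlapped the P21 arrays, so it was not called.

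Pnlip had the widest gap to the other ages and Vstm2l the smallest adjusted p of the peaks. Pnlip, the gene of pancreatic lipase, ranged from 5.39 to 6.86 at P3 with a median of 5.95, was 8.04, 8.55, 8.13 and 7.99 at P8, and 5.85, 6.60, 6.74, 6.97 and 6.39 at P21. The lowest P8 array was 1.02 above the highest other array, the widest gap of any peak, and the contrast was 1.88 ± 0.26 (adjusted p = 0.00151). P8 replicates 5 to 9 averaged 9.03, again with all 5 above both ages. Vstm2l, for a small immunoglobulin-domain protein, had a contrast of 1.72 ± 0.19 (adjusted p = 5.16e-04). Its P3 values were 5.73 to 6.35 with a median of 5.90, its P8 values 6.73, 7.71, 7.95 and 7.60, and its P21 values 5.58, 5.71, 5.43, 5.44 and 5.77. P8 replicate 1 was the lowest of its group and still stood above every array of the other ages.

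Bcam, Amn and Stk32c completed the named large peaks. Bcam, for a laminin-binding adhesion molecule of the immunoglobulin family, ranged from 2.77 to 5.59 at P3 with a median of 4.05, was 6.59, 6.82, 7.82 and 6.42 at P8, and 5.95, 5.25, 3.83, 2.85 and 2.98 at P21. All P8 arrays were above the rest, with wide spread at the other ages, and the contrast was 2.75 ± 0.66 (adjusted p = 0.027). Without P8 replicate 2 it was 2.78 and without replicate 3 it was 2.45 (adjusted p = 0.0695 and 0.0992). Amn, for the membrane anchor of the endocytic receptor cubilin, stood at 5.76, 7.04, 5.81 and 6.42 against 4.19 to 4.84 at P3 and 4.06 to 5.26 at P21, a contrast of 1.73 ± 0.25 (adjusted p = 0.0018). Stk32c, a serine/threonine kinase gene, stood at 7.08, 8.73, 7.82 and 8.48 against 6.33 to 6.97 and 4.54 to 6.74, a contrast of 1.85 ± 0.36 (adjusted p = 0.0106). Neither overlapped another age. In a further, dimmer probe set of Amn the P8 mean was the lowest, at 2.83 against 3.31 at P3 and 3.17 at P21.

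**Figure D3:**
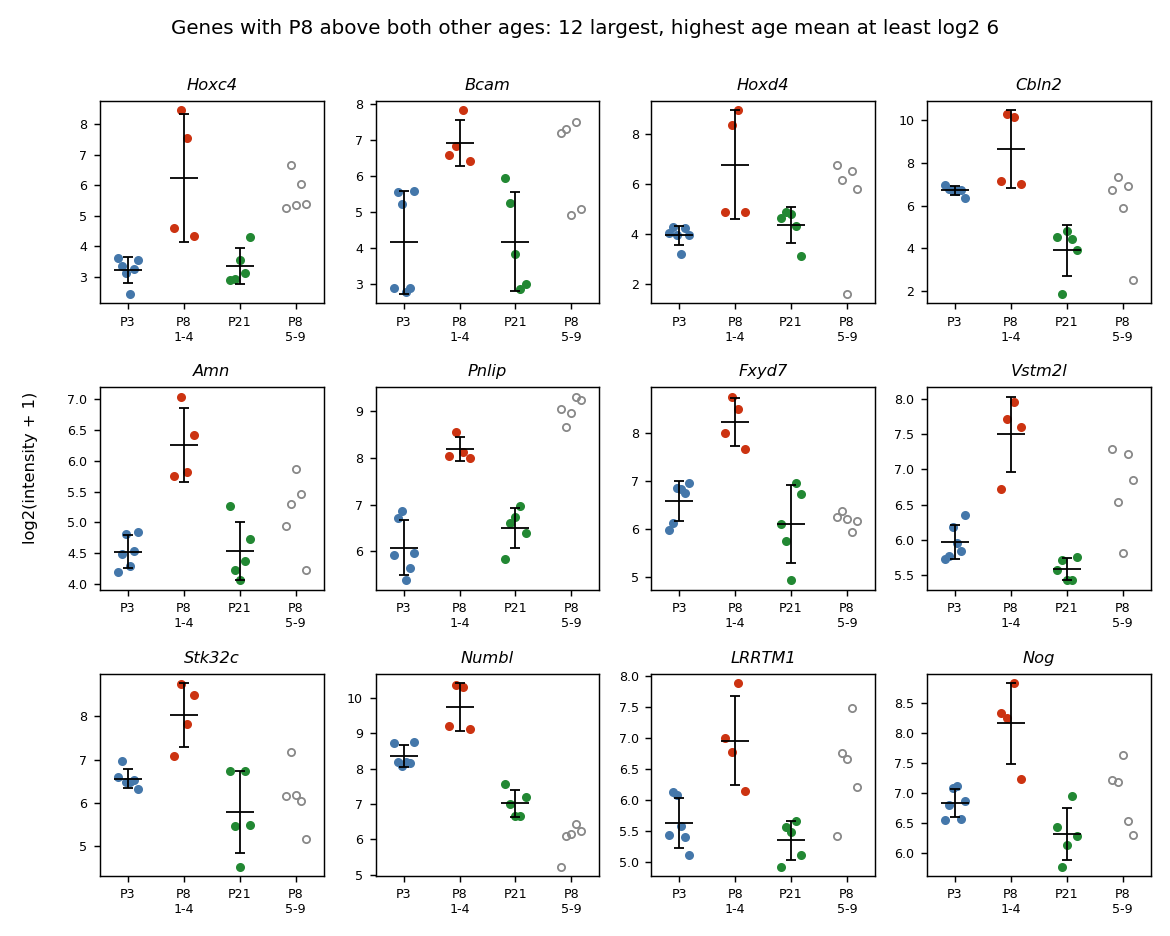
Levels of the 12 largest peaks whose highest age mean was at least log2 6, as log2(intensity + 1) per array at P3, P8 replicates 1 to 4, P21 and P8 replicates 5 to 9 (open circles, not used for the call); bars are the mean and SD. In Hoxc4, Hoxd4 and Cbln2 a pair of P8 arrays stands far above the other pair, whereas in Pnlip and Vstm2l the P8 arrays lie closer together.

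Cpne6, Cpne7, Hpca and Arpp21 were further peaks, named after their values were seen. Copines are calcium-dependent membrane-binding proteins, and 2 of 8 tested were called, in a family chosen for them, against 0.582% of all tested genes. Cpne6 was 8.73, 9.19, 9.29 and 8.51 at P8 against 7.29 to 8.07 at P3 and 6.82 to 8.22 at P21 (contrast 1.32 ± 0.26, adjusted p = 0.0106), and Cpne7 was 6.64, 6.97, 7.56 and 6.88 against 5.26 to 6.13 and 3.81 to 5.58 (contrast 1.65 ± 0.27, adjusted p = 0.00459). Cpne5 had a contrast of 1.23 ± 0.28 but overlapped at P8 replicate 4. Cpne4 had its highest mean at P8, with a contrast of 0.70 ± 0.36 that did not pass the threshold (adjusted p = 0.264). Cpne2, Cpne3, Cpne8 and Cpne9 had contrasts of -0.74 to -0.30 that did not pass it either. Hpca, for the calcium sensor hippocalcin, was 7.70, 8.06, 8.41 and 7.81 at P8 and at most 7.40 at P3 and 6.69 at P21 (contrast 1.20 ± 0.15, adjusted p = 0.00128). Arpp21, for a cAMP-regulated phosphoprotein, was 10.18, 10.68, 10.44 and 9.79 against 9.16 to 9.67 and 8.61 to 9.29 (contrast 1.08 ± 0.17, adjusted p = 0.00286). Further, dimmer probe sets of Arpp21 had contrasts of 0.014 and 0.126, with the P8 mean between those of the other ages. The left-out P8 replicates 5 to 9 averaged 7.22 for Arpp21, and each of them lay below every P3 and P21 array. For Cpne6, Cpne7 and Hpca they averaged 8.77, 6.41 and 7.25, above both age means.

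Hap1, Nsg1 and Sybu, which encode proteins of intracellular transport, were also peaks and were grouped here after their values were seen. Hap1, for the huntingtin-associated transport adaptor, was 8.75, 9.45, 10.01 and 8.34 at P8 and at most 8.04 at P3 and 8.27 at P21 (size 1.05). Nsg1, for an endosomal protein of neurons, was 10.67, 10.74, 11.08 and 10.99 at P8 against at most 10.34 at P3 and 10.19 at P21 (size 0.64). Sybu, for syntabulin, a linker between kinesin and axonal cargo, was 10.47, 10.74, 10.95 and 10.68 against at most 10.30 and 10.14 (size 0.76). These 3 genes had adjusted p of 0.01, 0.00368 and 0.00786 for the contrast. In P8 replicates 5 to 9 their means were 8.28, 7.11 and 8.11, so in the left-out arrays Nsg1 and Sybu were below both ages.

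Dnajb1, an Hsp40 co-chaperone gene of the stress list, showed how narrow the smaller peaks were. Its P8 values were 9.48, 9.63, 9.47 and 9.47, against 8.64 to 9.08 at P3 with a median of 9.00 and 8.64, 9.02, 8.83, 9.27 and 9.14 at P21. The P8 arrays did not overlap the others, and the contrast was 0.55 ± 0.13 (adjusted p = 0.0258). P8 replicates 5 to 9 averaged 7.29, all 5 below both ages, and with all 9 P8 arrays the contrast turned to -0.68. Without P8 replicate 2 or 3 it was 0.51 or 0.56 (adjusted p = 0.0791 and 0.0584). Of the 24 tested genes of its list 1 was a peak, and the list's median contrast was -0.09.

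Among the troughs, Cd24 was the largest. It encodes a small glycoprotein anchored to the surface of immature neurons and many other cells. It ranged from 9.00 to 9.59 at P3 with a median of 9.26, fell to 7.36, 6.58, 5.04 and 7.12 in P8 replicates 1 to 4, and stood at 10.85, 10.83, 11.08, 10.01 and 10.40 at P21. Every P8 array was at least 1.64 below every other array. The contrast was -3.43 ± 0.32 (adjusted p = 1.72e-04), and the P8 mean lay 6.74-fold below the P3 mean. P8 replicates 5 to 9 averaged 6.68, with all 5 below both ages.

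Fos, the immediate early gene that neuronal activity and handling induce, was also lowest at P8. It ranged from 8.44 to 10.19 at P3 with a median of 9.75, was 8.22, 7.04, 6.18 and 7.96 at P8, and 9.45, 9.10, 8.60, 8.30 and 8.43 at P21. P8 replicate 1 was 0.08 below the lowest array of the other ages and replicate 3 far below, with a contrast of -1.77 ± 0.38 (adjusted p = 0.0168). Without P8 replicate 2 or 3 the contrast was -1.67 or -1.38, at an adjusted p of 0.0604 or 0.0687. Of 22 tested immediate early genes 9 had their lowest mean at P8 (40.9%, against 26.8% of all tested genes), 4 their highest, and Fos was the 1 called. Dusp1, a phosphatase gene induced with it, was 6.47, 6.32, 5.91 and 6.60 at P8, 6.51 to 7.42 at P3 and 8.31 to 9.34 at P21. Its contrast of -1.71 ± 0.22 (adjusted p = 0.00132) came mainly from the P21 level, and P8 overlapped P3.

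Atf3, another stress-induced early gene, was 0.38, 2.29, 0.49 and 2.87 at P8 against a P3 range of 2.26 to 7.89 with a median of 5.85, and averaged 5.54 at P21. Its contrast was -3.88 ± 0.79 (adjusted p = 0.012), but P8 replicates 2 and 4 lay within the P3 range and the gene was not called. All 4 P8 levels were under the log2 4 of the filter and near the bottom of the scale. The size of this contrast is therefore not comparable with that of Fos.

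Cdkn1b, Cntf and Rorb were the troughs of the lists of cell death genes, growth factors and nuclear receptors, 1 of 23, 1 of 36 and 1 of 26 tested genes. Cdkn1b encodes p27Kip1, an inhibitor of the cell cycle that postmitotic neurons keep on. It ranged from 8.12 to 9.11 at P3 with a median of 8.72, was 7.93, 7.30, 6.37 and 6.94 at P8, and 8.81, 9.27, 9.41, 8.58 and 9.03 at P21. No P8 array reached the other ages, and the contrast was -1.71 ± 0.25 (adjusted p = 0.00213). Cntf, for ciliary neurotrophic factor, ranged from 5.84 to 6.87 at P3 with a median of 6.05, was 5.28, 4.00, 2.43 and 5.23 at P8, and 6.34, 6.09, 6.26, 6.60 and 6.39 at P21. P8 replicate 3 was the lowest and all 4 were below both ages, with a contrast of -2.0 ± 0.38 (adjusted p = 0.01). Rorb, for a nuclear receptor of the ROR family, was 2.72, 2.94, 1.89 and 1.89 at P8 against 3.43 to 4.40 at P3 and 3.09 to 4.26 at P21, a contrast of -1.38 ± 0.26 (adjusted p = 0.00983) at low levels. All 4 P8 values of Rorb were under the log2 4 of the filter. The gene passed it only through P3 and P21 arrays, where it was higher, and in 11 of 15 fits that left out 1 array. The size of its contrast therefore rests on levels under the filter.

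Zbtb18, Rbpj, Scaf11 and Son, with roles in transcription and RNA, were troughs too. Zbtb18, for a transcriptional repressor of neuronal differentiation, was 8.87, 9.29, 8.25 and 9.09 at P8, 9.45 to 10.06 at P3 with a median of 9.87, and 9.76, 9.92, 9.83, 9.75 and 9.997 at P21. P8 was below both in every array, and all of P8 replicates 5 to 9, at a mean of 7.65, were too (contrast -0.95 ± 0.17, adjusted p = 0.00706). A further, dimmer probe set of Zbtb18 had no trough, at means of 5.44, 5.45 and 5.35 for P3, P8 and P21. Rbpj, for the DNA-binding partner of Notch, was 8.99, 8.43, 7.89 and 8.93 against at least 9.38 at P3 and 9.16 at P21, with a contrast of -0.92 ± 0.17 (adjusted p = 0.0086). A further, dimmer probe set of Rbpj had no trough either, at 5.89, 5.70 and 5.21 for P3, P8 and P21. Scaf11, for a splicing-associated protein, was 5.94, 4.68, 4.85 and 5.94 at P8 and at least 6.27 at P3 and 5.98 at P21 (contrast -1.20 ± 0.23, adjusted p = 0.01). Son, for a nuclear speckle protein of splicing, was 7.79, 8.12, 8.22 and 8.03 against at least 8.51 and 8.54 (contrast -0.63 ± 0.11, adjusted p = 0.00693). None of the 34 tested genes of the RNA splicing and binding list was a peak or a trough, and 0 had an adjusted limma p under 0.05 for the contrast.

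Dnttip2 and Riok1 encode proteins of the nucleolus and of ribosome maturation. Dnttip2 was 5.92, 5.49, 6.16 and 6.40 at P8, 7.16 to 7.34 at P3 and 6.55 to 7.32 at P21, with a contrast of -1.11 ± 0.17 (adjusted p = 0.00297). Riok1 was 6.31, 5.83, 4.61 and 6.11 at P8, 6.69 to 7.48 at P3 and 6.47 to 7.56 at P21, with a contrast of -1.20 ± 0.27 (adjusted p = 0.0212). Both had all P8 arrays below both ages. P8 replicates 5 to 9 averaged 8.16 for Riok1, above both, and with all 9 P8 arrays its contrast turned to 0.16. Without P8 replicate 2 or 3 the contrast of Riok1 was -1.24 or -0.83 (adjusted p = 0.0521 and 0.0644). The 23 tested ribosomal protein genes held 0 peaks and 0 troughs.

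Phactr1, Cotl1, Wipf3 and Gkap1 were also troughs, while the cytoskeleton list held 0 peaks and 0 troughs among 26 tested genes. Phactr1, for an actin and protein phosphatase 1 regulator, was 7.59, 5.98, 6.98 and 7.36 at P8, 8.33 to 9.06 at P3 with a median of 8.74, and 7.73, 7.92, 8.65, 7.84 and 8.18 at P21 (contrast -1.42 ± 0.25, adjusted p = 0.00608). Cotl1, for the F-actin-binding coactosin-like protein, was 7.52, 7.36, 7.20 and 7.14 against at least 7.94 and 8.24 (contrast -1.08 ± 0.15, adjusted p = 0.00146), with all of P8 replicates 5 to 9 below both ages. Wipf3, for a partner of the actin regulator WASP, was 4.27, 3.25, 3.69 and 3.23 at P8, 4.28 to 4.97 at P3 and 7.07 to 8.33 at P21. P8 replicate 1 barely cleared the lowest P3 array, and the distance from P3 was -0.91 ± 0.25 within a contrast of -2.39 ± 0.23 (adjusted p = 1.72e-04). Gkap1, for a Golgi anchor of a cGMP-dependent kinase, was 7.99, 6.61, 7.19 and 7.70 at P8, 8.16 to 8.51 at P3 and 8.07 to 8.64 at P21 (contrast -0.95 ± 0.20, adjusted p = 0.0134). Without P8 replicate 3 its adjusted p was 0.0522 with a contrast of -0.89.

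Adgrd1, Lamb2 and Cilp2 were troughs as well, while the extracellular matrix list held 0 peaks and 0 troughs among 38 tested genes. Adgrd1, an adhesion G protein-coupled receptor gene, was 5.11, 5.76, 5.28 and 4.34 at P8, 5.92 to 6.97 at P3 and 5.97 to 6.63 at P21 (contrast -1.19 ± 0.23, adjusted p = 0.0101). Its P8 replicates 5 to 9 averaged 7.92, above both ages, and with all 9 P8 arrays the contrast turned to 0.36. Lamb2, for the laminin beta2 chain of synaptic basement membrane, was 5.78, 5.46, 4.84 and 5.75 at P8 and at least 5.84 at P3 and 6.15 at P21 (contrast -1.10 ± 0.21, adjusted p = 0.00985). Cilp2, a cartilage matrix protein gene, was 5.19, 5.15, 2.63 and 4.81 at P8, 5.19 to 5.77 at P3 and 6.30 to 7.70 at P21. P8 replicate 3 alone was far below P3, the distance to P3 missed the threshold (adjusted p = 0.107), and the contrast was -1.84 ± 0.38 (adjusted p = 0.0122).

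Cacnb3, for the beta3 subunit of voltage-gated calcium channels, was the smallest named trough. Its P8 values of 6.49, 6.58, 6.47 and 6.55 lay below 6.77 to 7.29 at P3, with a median of 7.11, and below 6.89, 7.27, 7.50, 6.68 and 7.30 at P21. The groups did not overlap in any of these arrays, and the contrast was -0.56 ± 0.15 (adjusted p = 0.045). The call was kept in 4 of 15 fits that left out 1 array. It was lost without any P8 array, where the contrast was -0.55, -0.58, -0.54 and -0.57 without replicates 1 to 4 (adjusted p of 0.0755, 0.0908, 0.111 and 0.0578). It was also lost without P3 replicates 3 to 6, at an adjusted p of 0.0653, 0.071, 0.073 and 0.067, and without P21 replicates 2, 3 and 5, at 0.0672, 0.065 and 0.0646.

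**Figure D4:**
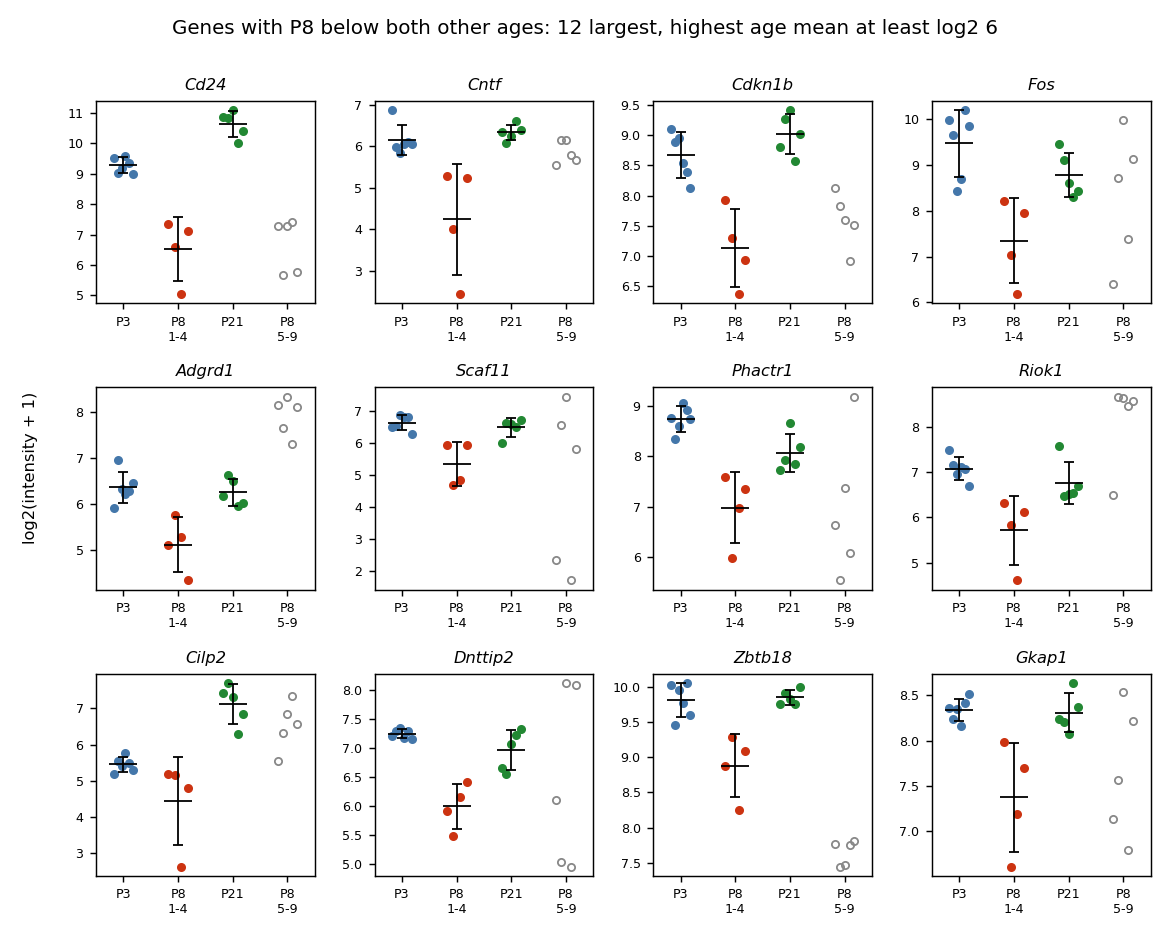
Levels of the 12 largest troughs whose highest age mean was at least log2 6, as log2(intensity + 1) per array at P3, P8 replicates 1 to 4, P21 and P8 replicates 5 to 9 (open circles, not used for the call); bars are the mean and SD. Cd24 has P8 furthest below both ages, and in Cilp2 only P8 replicate 3 is far from the P3 arrays.

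Some genes that were to be named whatever their values changed strongly around P8 without meeting the rule. Htr2c, for the serotonin 2C receptor, was 10.18, 10.999, 10.30 and 7.98 at P8, had a P3 median of 3.25 and a P21 mean of 7.02, and had the largest contrast of the 24 tested genes that were to be named whatever their values, 4.51 ± 0.65 (adjusted p = 0.00189). P8 replicate 4 lay below the highest P21 array, so the ages overlapped. Calb1, for calbindin, was 6.75, 9.28, 9.23 and 8.08 at P8 against a P3 mean of 4.74 and a P21 mean of 6.44 (contrast 2.74 ± 0.55, adjusted p = 0.0111), and it overlapped as well. In P8 replicates 5 to 9 Htr2c and Calb1 each averaged 5.36, between their P3 and P21 means. Of the 24 genes 2 were called, Cd24 and Fos. Kcna1, Kcnc1, Pvalb, Calb2 and Scn4b had P8 means between those of P3 and P21.

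Of 43 gene lists covering 950 tested genes, 32 held no peak and no trough. The lists held 7 of the 70 peaks and 6 of the 41 troughs, and 7.9% of all tested genes. Neuropeptide genes had 13 of 26 highest at P8 (24.1% of all tested genes were highest there) and a median contrast of 0.34, with 0 peaks. Nts, for neurotensin, was 4.31, 10.05, 10.74 and 4.56 at P8 against at most 5.09 at P3 and 4.49 at P21 (contrast 3.55 ± 0.96, adjusted p = 0.0434), and Tac1, for substance P, was 3.72, 6.68, 7.45 and 4.67 against at most 4.43 and 2.98 (contrast 3.16 ± 0.65, adjusted p = 0.0124). In both, as in Hoxc4, Hoxd4 and Cbln2, the high values were those of P8 replicates 2 and 3. Crh, for corticotropin-releasing hormone, was 7.38, 6.37, 5.2 and 3.12, with replicate 4 inside the ranges of the other ages (contrast 3.18 ± 0.71, adjusted p = 0.02). In Nts, Tac1 and Crh the mean of the P3 and P21 means was under the log2 4 of the filter. The sizes of their contrasts are therefore against levels under the filter. Whether these genes passed the filter without the P8 arrays is not given here.

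Among markers of other cells, those of new oligodendrocytes were highest at P8. The mean of 14 new oligodendrocyte genes, those of cells about to form myelin, was 6.64 at P3, 7.52 at P8 and 6.93 at P21, ranging from 7.32 to 7.66 at P8 and from 6.28 to 7.11 elsewhere. All 4 P8 arrays were above both ages (2-sided exact permutation adjusted p = 0.0335 against each age, over 38 tests of array measures), and 9 of the 14 genes were highest at P8 (64.3%, against 24.1% of all tested genes). The contrast called 5 of the 14 higher, against 3.00% of all tested genes, and 0 were peaks. The mean of 13 pericyte and fibroblast genes was also highest at P8, at 5.87 against 5.40 at P3 and 5.63 at P21. Its P8 arrays overlapped P3 (exact permutation adjusted p = 0.0543 against P3 and 0.0335 against P21). In that list 7 of the 13 genes were highest at P8 (53.8%) and 0 were peaks. Mature myelin genes were between the ages, at 4.82, 6.80 and 7.77, and 2 of 20 were highest at P8. The mean of 12 cerebellar granule cell genes was 6.59 at P8, below 7.03 at P3 and 7.26 at P21 (exact permutation adjusted p = 0.0335 and 0.129). That of 15 microglial genes was 4.45 at P8, 5.11 at P3 and 4.71 at P21, and passed the threshold against neither (exact permutation adjusted p = 0.0658 and 0.287). In the interferon and NF-kB list 16 of 28 genes were lowest at P8 (57.1%, against 26.8%), with a median contrast of -0.75, 2 genes past the contrast and 0 troughs. The mean of that list was nevertheless level at P8 and P21, at 4.27 to 4.79 and 4.50 to 4.65, and high at P3, at 7.32 and 7.96 in replicates 1 and 2 and 5.00 to 6.31 in the others. The part of these cells in the peaks and troughs was not tested.

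The P8 arrays did not contribute equally to the calls. The highest value of a peak was that of P8 replicate 3 in 38 of the 70 genes and of replicate 2 in 25, against 2 in replicate 1 and 5 in replicate 4. The lowest value of a trough was in replicate 3 for 19 of the 41 genes and in replicate 2 for 11. The array closest to the other ages was replicate 4 in 30 peaks and replicate 1 in 22. Leaving out replicate 4 raised the counts to 154 peaks and 120 troughs, and leaving out replicate 1 raised them to 112 and 108. Without replicate 2 they were 62 and 46, and without replicate 3 they were 64 and 38. The cause was not tested. Without replicates 2 and 3 together there were 33 peaks and 20 troughs, of which 10 and 11 were among the main calls. Replicates 2 and 3 had lower correlations with every age than replicates 1 and 4, for example 0.87 and 0.845 with P3 against 0.914 and 0.907.

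P8 replicates 5 to 9 gave values of their own for the same genes, on arrays whose controls and median intensities differed. Their mean was above both ages in 37 of the 70 peaks (52.9%, against 41.2% of all tested genes) and below both in 26. It was below both ages in 24 of the 41 troughs (58.5%, against 39.8%) and above both in 13. All 5 of these arrays lay beyond both ages in 8 peaks, among them Hoxc4, Pnlip, Kcnc4 and Cpne6, and in 10 troughs, among them Cd24, Zbtb18, Rbpj and Cotl1. With all 9 P8 arrays in the fit 11 genes were called as peaks and 12 as troughs, and 8 and 10 of these were among the calls above.

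**Figure D5:**
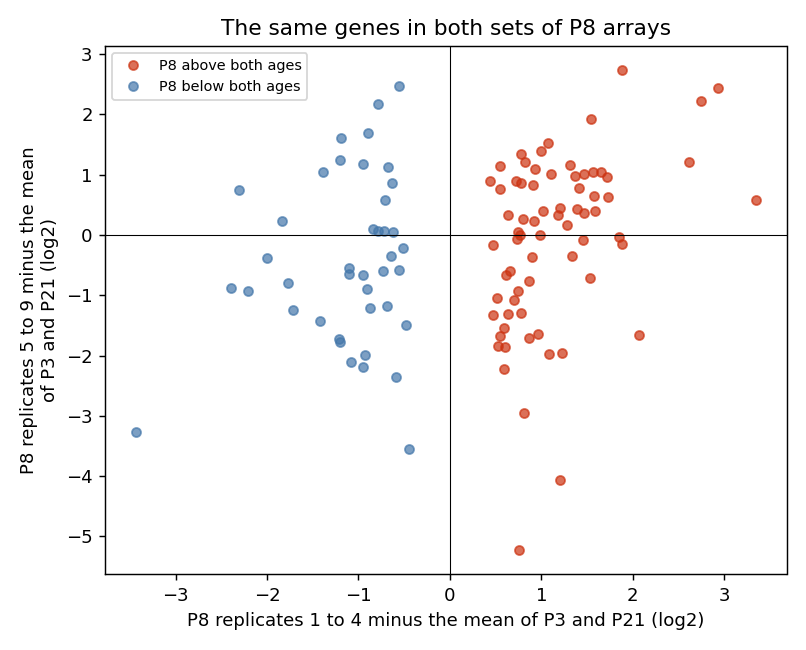
For each called gene, the contrast in P8 replicates 1 to 4 (horizontal axis) is plotted against P8 replicates 5 to 9 minus the same mean of P3 and P21 (vertical axis), both in log2 units; both axes share the P3 and P21 arrays. Peaks and troughs alike lie on both sides of 0 on the vertical axis.

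A gene with several probe sets offers a partly separate reading of the same RNA. The 70 peaks had 28 further tested probe sets in 20 genes, of which 23 (82.1%) had a positive contrast, and the 41 troughs had 20 in 11 genes, of which 16 (80.0%) had a negative one. Over all tested genes 58.9% of 3969 further probe sets had the sign of the main one. The P8 mean lay outside both ages on the same side in 10 of the 28 peak probe sets (35.7%) and in 16 of the 20 trough probe sets (80.0%), against 34.9% over all tested genes. None of the further probe sets of peaks or troughs was called in limma's fit over every probe set, where 19 of the 3969 were.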

How the data were processed

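Each array is labelled as a biological replicate (6 at P3, 9 at P8, 5 at P21) with no litter or date, so p-values measure the spread between these samples. RNA went through 2 rounds of linear amplification, per the labels' protocols. The values are the authors' deposited intensity of each probe set, on a linear scale. GCRMA appears in the submitters' processing notes without a version, and the step that made linear values is one not given in the sources used here. Without the lowest and highest 2% of probe sets every array averaged 99.3 to 100.0, so no scaling was added.

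Of 31099 probe sets, 20826 had 1 gene in the platform annotation, 436 several and 9837 none. Symbols were updated through RefSeq (GRCr8), 20764 by Entrez identifier, 2 by accession and 66 kept. The probe set of highest mean stood for each of 14217 genes. The filter asked for over log2 4 in at least 4 arrays and kept 12023 genes, analysed as log2(intensity + 1), which understates changes of dim genes. limma 3.58.1 in R 4.3.3 fitted 1 mean per age. Named were the 12 largest peaks and troughs with a highest age mean of at least log2 6, up to 3 called genes per list, and 26 listed genes. Members and lists were chosen with earlier results of these data known. Array measures were compared by exact permutation. Alternatives covered filters, pseudocount, floor, scaling, variance models, probe set choice, covariates, a Mann-Whitney test, the replicate number as a block and each array left out. In a simulation of 50 genes per fold change the fit called 6 at 1.5-fold, 27 at 2-fold, 40 at 4-fold and 49 at 8-fold, with 7 unchanged genes called among 12023. The simulated noise was normal, independent between arrays and of 1 SD per gene at all ages. In the data the median SD of a gene was 0.405 at P8, 0.265 at P3 and 0.323 at P21. The 7 is therefore not the error rate of the calls. The number of arrays limits the precision.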

Additional observations from a re-analysis of the deposited data

Results flagged for a closer look

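In 30 named genes 90 groups were checked for a sample far from the others, and 7 stood apart, where chance gives about 1 in 20. Hoxd4 was 3.17 in P3 replicate 4, against 3.95 to 4.25 in the other P3 arrays. Kcnc4 was 5.86 in P3 replicate 6, against 6.45 to 6.78. Dnajb1 was 9.63 in P8 replicate 2, against 9.47 to 9.48. Cntf was 6.87 in P3 replicate 1, against 5.84 to 6.09. Scaf11 was 5.98 in P21 replicate 1, against 6.51 to 6.71, and Riok1 was 7.56 in the same array, against 6.47 to 6.68. Cilp2 was 2.63 in P8 replicate 3, against 4.81 to 5.19. In data outside the comparison, the spike-in controls of P8 replicates 5 to 9 averaged 13.22, with a range of 12.9 to 13.8, against 8.85 in P8 replicates 1 to 4.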

How the results depend on the processing

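The counts of 70 peaks and 41 troughs stayed within 1.5 times, at 50 to 76 and 28 to 49, under other filters, pseudocounts, scalings, variance models, array weights, probe set choices, a beta-actin covariate and a rule asking for both pairwise contrasts. The members changed as well. Under these settings 45 to 70 of the 70 peaks and 27 to 39 of the 41 troughs were still called. The fewest, 45 and 27, were kept with the mean of probe sets, and 50 and 28 with array weights. With the replicate number as a replicate block they were 34 and 20. Same-numbered arrays of different ages had correlations of -0.062 to 0.043 in 13 pairs, so the numbers do not pair the samples. Allowing overlap gave 309 and 248, and a size of at least 1 gave 27 and 13. The exact Mann-Whitney test gave 0 and 0. With 4 P8 arrays against 11 its p cannot be under 0.00147. Even arrays that did not overlap reached a Mann-Whitney adjusted p of 0.155 at best, so this test could call no gene here. At an unadjusted Mann-Whitney p under 0.05, 645 genes were higher and 570 lower. All 9 P8 arrays gave 11 and 12, and the myelin mean as a covariate gave 10 and 7. Leaving out each array in turn gave 62 to 154 and 35 to 120. Chosen after seeing the data, the fit without P8 replicates 2 and 3 gave 33 and 20, and that without replicates 1 and 4 gave 486 and 656. The cause of these differences was not tested. Of the 30 called genes named by the stated rule, 6 changed the sign of their contrast with all 9 P8 arrays. They were Numbl (-0.001), Syngr3 (-0.54), Nrxn2 (-0.97), Dnajb1 (-0.68), Adgrd1 (0.36) and Riok1 (0.16). Called genes named outside that rule, such as Arpp21, Nsg1 and Sybu, were not part of this count. Under a mean over probe sets 2 named genes had no value.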
